A study of Mus musculus with 6 samples.

Results

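The nuclear receptors are transcription factors that bind small lipophilic ligands, and 33 members of the family were followed here in the liver of mice on a high-fat or a control diet. The list holds all receptors taken up for this account other than the clock receptors Nr1d1 and Nr1d2, and members were found as the probe sets that the platform annotation assigns to exactly 1 member symbol. Of the 33 members, 31 had at least 1 such probe set on all 6 arrays, with 55 probe sets in all among 22626 shared probe sets. Nr3c2, the mineralocorticoid receptor, was present only on the larger array design, and Nr1h2, the more widely expressed of the liver X receptors, had no probe set assigned to it alone. The animals were C57BL/6J mice, an inbred strain that becomes obese on fat-rich food, and each of the high-fat and control diets was sampled at weeks 2, 4 and 10 of feeding, with 1 array per diet and week. The labels do not give age, sex, diet composition, hour of collection, or the number of mice behind each array. No diet therefore has a replicate within a week, and p-values measure the spread of the diet difference between weeks, which may be technical.

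A nuclear receptor typically joins a zinc-finger domain, which recognises a short DNA element built on the letters AGGTCA, to a ligand pocket that exchanges corepressors for coactivators. In the liver the peroxisome proliferator-activated receptors respond to fatty acids, the liver X receptors to oxysterols, the farnesoid X receptor to bile acids, and the constitutive androstane and pregnane X receptors to foreign compounds. Most of these act as partners of a retinoid X receptor, while the steroid receptors pair with themselves and the hepatocyte nuclear factors sustain the hepatocyte programme.

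Levels are given as centred signal, the deposited linear signal intensity after each array was brought to the same median. Values under a floor of 155, the pooled 40th percentile, were treated as background and set to the floor before differences were taken. Where only 1 diet was at the floor the difference is a bound, written "at least". The arrays of week 4 belong to a larger design than those of weeks 2 and 10, so levels were compared across weeks only between weeks 2 and 10. Signs of RNA quality were unequal: the 3'/5' ratio of the pyruvate carboxylase controls ranged from 2.39 to 9.64 over the high-fat arrays and from 3.82 to 4.26 over the control arrays. All 6 hepatocyte markers were above the floor, whereas the cholangiocyte markers Krt7 and Epcam, the pancreatic markers Cela2a and Cpa1 and the adipocyte marker Adipoq were at the floor on all 6 arrays. Other markers of these types were not. The pancreatic marker Prss2 was above the floor on 5 arrays, with log2 differences of -1.43, -0.55 (a bound) and 2.13 at weeks 2, 4 and 10. The adipocyte marker Retn was above it on 3 arrays, and the cholangiocyte marker Krt19 on too few to be tested. In whole liver, fewer cells of a type and less RNA per cell cannot be told apart.

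Most members were detectable on these arrays, as were most named genes of the series. Of the 31 members with a shared probe set, 24 passed the filter, namely that the brightest probe set exceeded the floor on 3 or more of the arrays, and 19 of these were above it on all 6. The same filter passed 8846 of the 12393 named genes. The share of all genes above the floor on all 6 arrays was not counted. No member passed through the arrays of a single diet. Esr1 (estrogen receptor alpha), Ppard, Rara, Nr2f1 and Hnf4g stayed at the floor on every shared probe set and every array. Pparg, the fat-storage receptor of adipocytes, was above the floor only on the high-fat array of week 4, where its signal was 255, against 100 on the control array, a difference of at least 0.72 on the log2 scale. Vdr, the vitamin D receptor, was above it only on the control array of week 10, at 162, against 143 on the high-fat array. A probe set at the floor did not always mean a gene without signal. The larger design carries another Esr1 probe set, 1460591_at, whose signal at week 4 was 1880 on the high-fat array and 2166 on the control array.

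No receptor passed the test of diet over the 3 weeks. Among the 24 members tested, 0 had a limma adjusted p under 0.05 with week as a block (3 arrays per diet), where 0.0113% of the 8846 genes tested did. Thra alone had an unadjusted p under 0.05, where 4.08% of all genes did. Mean log2 differences of the members ran from -0.72 (Thra) to 0.44 (Rora), with a median of -0.04 beside -0.03 over all genes. Within single weeks the median log2 differences of the members were 0.01, -0.01 and -0.14 at weeks 2, 4 and 10, beside -0.03, 0.00 and 0.02 over all genes. Genes under the floor on both arrays of a week enter with a difference of 0, as 4 members did at week 4. With the floor at the 20th percentile the week 4 median over all genes was -0.05. The median size of a member's difference was 0.17, 0.23 and 0.45 at the 3 weeks, against 0.26, 0.18 and 0.34 over all genes, so their differences were largest at week 10.

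**Figure D1:**
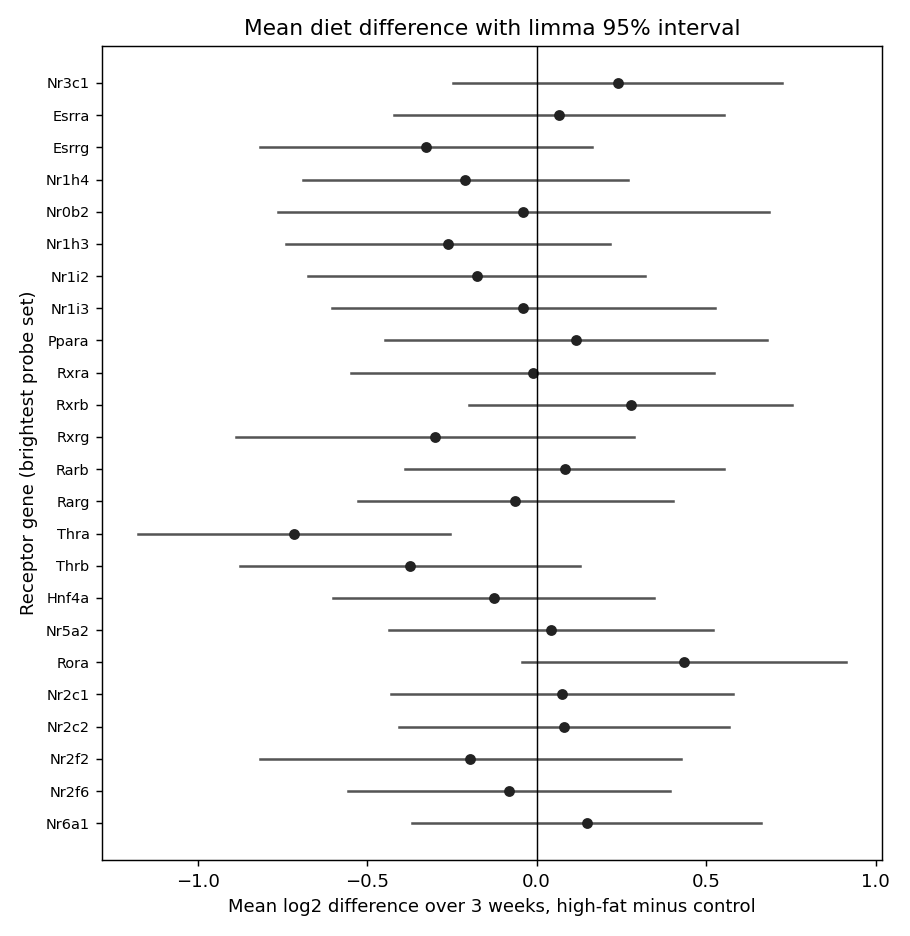
Mean log2 difference over the 3 weeks, high-fat minus control, for the 24 receptors tested, on the brightest probe set of each. Points are limma estimates and bars their 95% intervals, not adjusted for the number of genes; the interval lies below 0 for Thra and reaches across 0 for every other receptor shown.

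Single weeks were described by a 1.5-fold difference, with 1 array per diet and no test. At week 2, 0 of the 24 members were at least that much higher on the high-fat array (6.83% of all genes) and 2, Thra and Thrb, were that much lower (8.79%). At week 4, 0 were higher (3.87%) and 4, Nr0b2, Nr1i3, Rxrg and Thra, were lower (6.66%). At week 10, 3 were higher, Nr0b2, Rora and Nr6a1 (13.5%), and 3 were lower, Rxrg, Thra and Nr2f2 (12.7%). The shares of members, 12.5% in each direction at week 10, lay near those of all genes. The 16.7% lower at week 4 depended on the scaling, since quantile normalization left 0 members past 1.5-fold and a correction for brightness left 2. The differences themselves stayed close to the threshold for most of them: under quantile normalization Nr0b2 had -0.57, Nr1i3 -0.56, Thra -0.55 and Rxrg -0.42 on the log2 scale. At that week all 6 hepatocyte markers were also at least 1.5-fold lower under high-fat feeding, with a summed signal of 161605 against 294826 on the control array, and their part in the receptor differences was not tested. Of the members, 2 were higher at all 3 weeks, Rxrb and Rora (8.16% of all genes), and 2 were lower at all 3, Nr1h3 and Thra (11.3%).

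**Figure D2:**
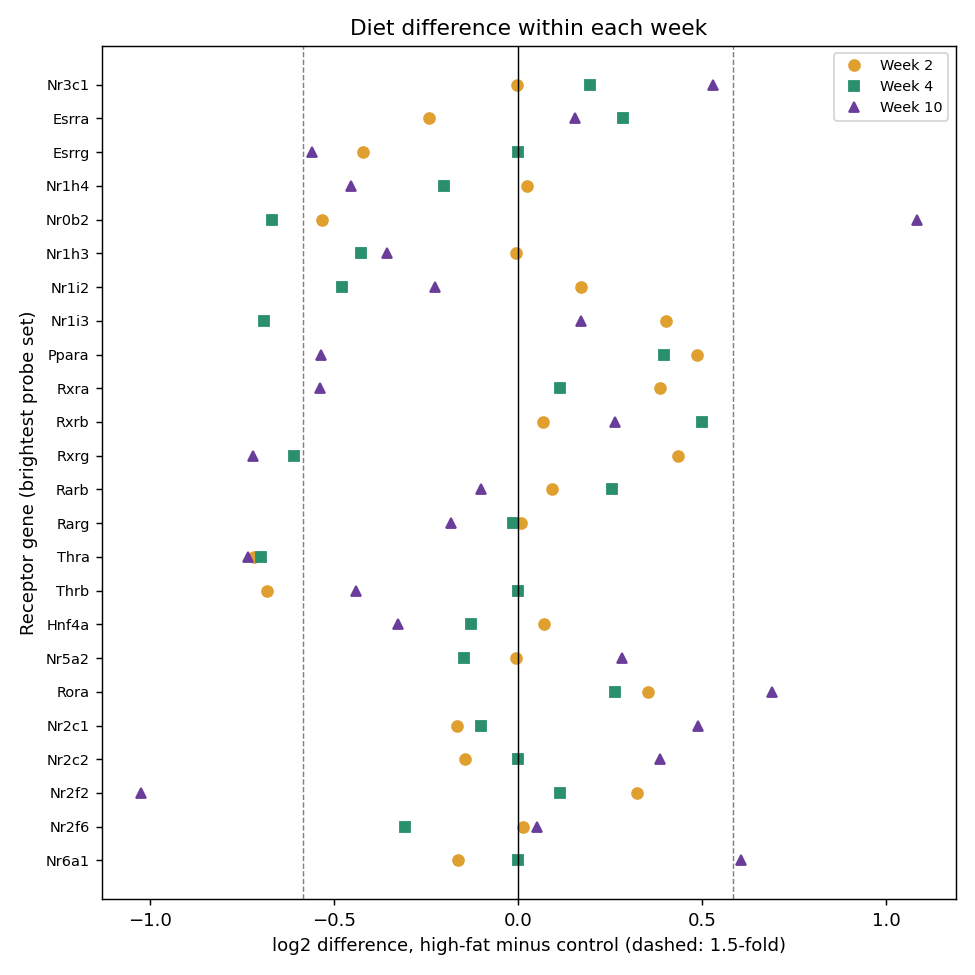
log2 difference between the high-fat and the control array at weeks 2, 4 and 10 for the 24 receptors tested, 1 array per diet and week, with values under the floor set to it. Dashed lines mark 1.5-fold; the 3 Thra points lie together between -0.73 and -0.70, while the Nr0b2 points lie at -0.53, -0.67 and 1.08.

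Thra, thyroid hormone receptor alpha, had the largest mean difference of the family. Its signal on probe set 1454675_at was 452, 297 and 297 on the high-fat arrays of weeks 2, 4 and 10, against 743, 482 and 494 on the control arrays. The high-fat value was the lower within each week, and the receptor was 1.64-, 1.62- and 1.66-fold lower with high-fat feeding at the 3 weeks. The mean log2 difference was -0.72 with a standard error of 0.21 and a 95% interval of -1.18 to -0.26 (limma, 3 arrays per diet, unadjusted p = 0.00604, adjusted p = 0.995). Thra was lower by at least 1.5-fold at all 3 weeks, which was true of 0.136% of the genes tested. This pattern was among the results known when the family was taken up.

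Other probe sets did not show the same. On 1426997_at Thra was at or under the floor at weeks 2 and 10, and at week 4 its signal was 206 on the high-fat array and 174 on the control array. On 1443952_at, of the larger design only, it was 201 on the high-fat array against 144, under the floor, on the control array. The mean over the shared probe sets was -0.36, -0.23 and -0.37 on the log2 scale. At weeks 2 and 10 the floor made 1426997_at enter this mean as 0. The sign of the mean there came from 1454675_at alone and is no check on it. Only at week 4 were both probe sets measured, with opposite signs, -0.70 on 1454675_at and 0.24 on 1426997_at. In RefSeq the span of Thra overlaps that of Nr1d1, a clock repressor known to be read from the opposite strand. Nr1d1 had a signal of 1399, 294 and 1258 on the high-fat arrays, against 435, 294 and 261 on the control arrays. Whether signal crosses between the overlapping genes was not tested. The spans of Esrra, Nr1h3, Nr1i3, Thrb and Nr2c2 also overlap another gene in RefSeq, and their values carry the same limit.

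Thrb, the main thyroid hormone receptor of hepatocytes, has a single probe set on these arrays. Its signal was 224, 89.6 and 457 on the high-fat arrays of weeks 2, 4 and 10, against 360, 87.1 and 620 on the control arrays. It was 1.60-fold lower with high-fat feeding at week 2 and 1.36-fold lower at week 10, and under the floor on both arrays of week 4. The mean log2 difference was -0.37 with a 95% interval of -0.88 to 0.13 (limma, adjusted p = 0.995). In both, week 4 enters as a difference of 0 that the floor imposed and that was not measured. Among receptors for retinoic acid, a vitamin A metabolite, Rarb and Rarg were close between the diets, with log2 differences from -0.18 to 0.26 on the brightest probe set. On its dimmer probe set Rarg was at the floor on the high-fat array of week 2, a log2 difference of -0.53 that is a bound, and had a log2 difference of 0.21 at week 10.

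Nr0b2 encodes the small heterodimer partner, a receptor without a DNA-binding domain that bile acids induce through the farnesoid X receptor and that represses bile acid synthesis. Its signal was 1336, 2450 and 2735 on the high-fat arrays of weeks 2, 4 and 10, against 1932, 3890 and 1291 on the control arrays. It was thus 1.45-fold lower with high-fat feeding at week 2 and 1.59-fold lower at week 4, but 2.12-fold higher at week 10, with log2 differences of -0.53, -0.67 and 1.08. The mean of -0.04 has a 95% interval of -0.76 to 0.69 (limma, adjusted p = 0.999). Nr1h4, the farnesoid X receptor itself, had 2225, 2344 and 1658 on the high-fat arrays and 2186, 2696 and 2269 on the control arrays, with log2 differences of 0.03, -0.20 and -0.45. Cyp7a1 and Cyp8b1, the bile acid synthesis enzymes that the small heterodimer partner represses, were both lower with high-fat feeding at weeks 4 and 10. Their log2 differences at these weeks were -0.83 and -0.68 for Cyp7a1 and -1.80 and -1.37 for Cyp8b1, with Nr0b2 lower at week 4 and higher at week 10. At week 2, when Nr0b2 was also lower, Cyp7a1 had -1.06 and Cyp8b1 had -0.004. The part of Nr0b2 in these values was not tested.

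Nr1i3, the constitutive androstane receptor, which switches on drug-metabolising enzymes, differed in direction between weeks. Its signal was 3362, 1780 and 3075 on the high-fat arrays, against 2543, 2869 and 2732 on the control arrays. Only week 4 had a difference past 1.5-fold, 1.61-fold lower on the high-fat array, and weeks 2 and 10 had log2 differences of 0.40 and 0.17. Nr1i2, the pregnane X receptor, had log2 differences of 0.17, -0.48 and -0.23, and its second probe set gave 0.06, -0.49 and -0.05. Nr1h3, liver X receptor alpha, had 1048, 1370 and 942 on the high-fat arrays and 1052, 1840 and 1204 on the control arrays. The week 2 difference of Nr1h3 was -0.01 and turned to 0.01 under quantile normalization, so its lower sign at all 3 weeks rests on weeks 4 and 10, at -0.43 and -0.35. All 5 tested sensors of bile acids, oxysterols and foreign compounds were lower with high-fat feeding at week 4, from -0.69 to -0.20, and 2 of them, Nr0b2 and Nr1i3, passed 1.5-fold. At that week 46.2% of all genes were lower to any extent, with those under the floor on both arrays counted as not lower. The hepatocyte markers had a median of -0.85 at week 4.

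The stretches upstream of 3 receptors that were at least 1.5-fold lower at week 4 are shown because these members differed in the same direction at that week. They run 5' to 3' up to the first annotated base of the gene in RefSeq (GRCm38.p6), and capitals mark the letters CACGTG, an E-box of the kind that clock activators bind.
Nr0b2 (chr4:133553126-133553375, plus strand): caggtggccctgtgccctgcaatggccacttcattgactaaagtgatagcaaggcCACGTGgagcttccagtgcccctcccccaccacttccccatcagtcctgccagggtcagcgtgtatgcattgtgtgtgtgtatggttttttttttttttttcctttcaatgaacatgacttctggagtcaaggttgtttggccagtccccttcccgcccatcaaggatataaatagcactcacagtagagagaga
Nr1i3 (chr1:171213720-171213933, plus strand): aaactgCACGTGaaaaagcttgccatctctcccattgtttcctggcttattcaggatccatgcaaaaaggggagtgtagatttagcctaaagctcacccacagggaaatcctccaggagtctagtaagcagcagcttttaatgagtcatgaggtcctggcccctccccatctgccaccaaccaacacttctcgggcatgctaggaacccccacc
Rxrg (chr1:167598112-167598361, plus strand): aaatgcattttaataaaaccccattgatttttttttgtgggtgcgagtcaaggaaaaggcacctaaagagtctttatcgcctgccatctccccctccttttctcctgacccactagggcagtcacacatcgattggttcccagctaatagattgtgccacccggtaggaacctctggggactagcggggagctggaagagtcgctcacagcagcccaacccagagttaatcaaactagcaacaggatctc
The letters CACGTG, which read the same on both strands, begin 195 bases before the listed start in Nr0b2 and 244 bases before it in Nr1i3. In Nr1i3 that listed start lies downstream of the first annotated base of the gene, where the printed stretch ends. They occur in 4 of 49 member promoter windows (8.16%) and in 6.02% of all 32851 windows of 250 bases. The receptor element AGGTCA was sought on both strands and stands in 9 of the 49 windows (18.4%) and in 14.0% of all windows. None of the 3 stretches printed holds it, although a second listed start of Rxrg has it 88 bases upstream. These matches describe the letters and say nothing of binding.

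Ppara, the fatty acid sensor that drives hepatic fat oxidation and the main member of its class in hepatocytes, had 4049, 2858 and 3583 on the high-fat arrays of weeks 2, 4 and 10, against 2891, 2169 and 5193 on the control arrays. It was higher with high-fat feeding at weeks 2 and 4, with log2 differences of 0.49 and 0.40, and lower at week 10, with -0.54. The larger design has further Ppara probe sets, and at week 4 these gave 3021 and 2553 on the high-fat array against 1753 and 1548 on the control array. All 3 Ppara probe sets were therefore higher at week 4, by 0.40, 0.79 and 0.72 on the log2 scale. Over the weeks the mean was 0.12 with a 95% interval of -0.45 to 0.68 (limma, adjusted p = 0.995).

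The retinoid X receptors, obligate partners of most of the sensors above, differed in direction. Rxra, the main form in liver, had 3171, 2515 and 1732 on the high-fat arrays and 2427, 2321 and 2512 on the control arrays of its brightest probe set. That order turned on its second probe set, whose log2 differences were -0.21, -0.31 and 0.21 where the brightest gave 0.39, 0.12 and -0.54. Rxrb was higher on each high-fat array, at 635, 827 and 594 against 606, 584 and 495 on the control arrays, with differences of 0.07, 0.50 and 0.26. Its mean log2 difference of 0.28 has a 95% interval of -0.20 to 0.76 (limma, adjusted p = 0.995). Rxrg, a form best known from muscle and brain, lay close to the floor, at 229, 166 and 70.6 on the high-fat arrays and 170, 253 and 256 on the control arrays. It was 1.53-fold lower with high-fat feeding at week 4 and at least 1.65-fold lower at week 10, and 1.35-fold higher at week 2.

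**Figure D3:**
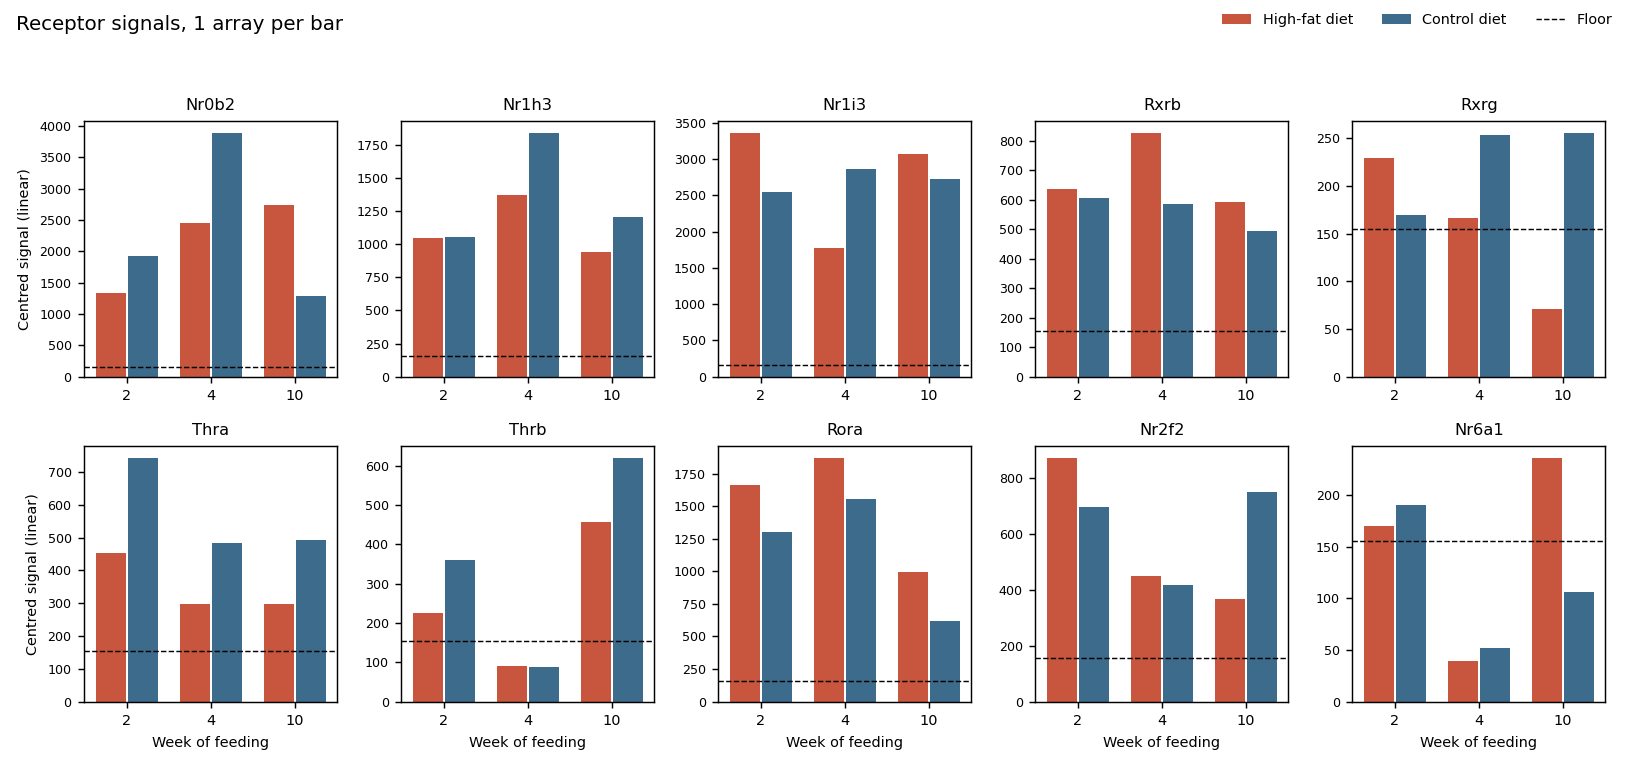
Centred linear signal on the brightest probe set of the 10 receptors that had a difference of 1 sign at all 3 weeks or of at least 1.5-fold at a week. Each bar is 1 array, with high-fat left of control at each week, and the dashed line is the floor of 155; the high-fat bar is the lower at all 3 weeks for Thra and the higher for Rora and Rxrb.

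Nr3c1, the glucocorticoid receptor, has 3 shared probe sets. On the brightest its signal was 993, 1604 and 1247 on the high-fat arrays, against 995, 1401 and 864 on the control arrays, with log2 differences of 0.00, 0.19 and 0.53. At week 10 the second probe set gave 1069 on the high-fat and 646 on the control array (0.73), and the third 419 on the high-fat array with the control at the floor (at least 1.43). All 3 shared probe sets were thus higher with high-fat feeding at week 10, while at week 2 they gave 0.00, 0.20 and -0.48. The mean on the brightest was 0.24 with a 95% interval of -0.25 to 0.73 (limma, adjusted p = 0.995). Of 8 tested glucocorticoid target genes, those past 1.5-fold at week 2 were 1 higher (6.83% of all genes) and 2 lower (8.79%). At week 4 there were 1 higher (3.87%) and 3 lower (6.66%), and at week 10 there were 0 higher (13.5%) and 5 lower (12.7%). Esrra and Esrrg are estrogen-related receptors that regulate mitochondrial genes. Esrra had log2 differences from -0.24 to 0.29, and Esrrg had -0.42 and -0.56 at weeks 2 and 10, with both arrays of week 4 under the floor. Nr3c2 was near the floor at week 4, with 183 on the high-fat and 162 on the control array.

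Rora, a constitutive activator that feeds the clock gene Arntl, was higher with high-fat feeding at each week on its brightest probe set. Its signal there was 1659, 1870 and 992 on the high-fat arrays, against 1300, 1557 and 615 on the control arrays. The differences were 0.35, 0.26 and 0.69 on the log2 scale, the last being 1.61-fold, and the mean was 0.44 with a 95% interval of -0.04 to 0.91 (limma, unadjusted p = 0.0700, adjusted p = 0.995). The other shared probe sets disagreed with it in sign at week 2, and 1424035_at also at week 10. On 1420583_a_at the difference at week 4 was 0.07, of the same sign. At week 2 Rora had log2 differences of -0.18 on 1420583_a_at and -0.17 on 1424035_at, and averaging its 3 probe sets gave a mean over the weeks of 0.12. At week 10 they also disagreed with each other. Rora had 914 on the high-fat and 376 on the control array on 1420583_a_at, which is higher, but 262 on the high-fat and 605 on the control array on 1424035_at, which is lower. On the larger design 4 further Rora probe sets were above the floor on both arrays of week 4, with differences of 0.53, 0.05, -0.05 and -0.36. Arntl, which Rora is known to activate, was lower on each high-fat array, with a signal of 377, 311 and 227 against 925, 509 and 874 on the control arrays.

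Hnf4a, the factor that maintains hepatocyte identity, had 4 probe sets, all above the floor on all 6 arrays, and these differed in direction. The brightest was close between the diets, at 7259, 6284 and 7575 on the high-fat arrays and 6907, 6863 and 9485 on the control arrays. The dimmest, 1450447_at, had 682, 609 and 1455 on the high-fat arrays against 1701, 1043 and 1297 on the control arrays, log2 differences of -1.32, -0.77 and 0.17. Another, 1427000_at, had the opposite signs, with 0.43, 0.40 and -0.72. At week 4 the sign on the brightest probe set also turned with the scaling, being -0.13 as centred and 0.07 under quantile normalization. Nr5a2, liver receptor homolog 1, which drives bile acid enzymes, had differences of -0.01, -0.15 and 0.28 on its brightest probe set. On 1449706_s_at Nr5a2 had -0.69, 0.52 and 0.22, which is larger at weeks 2 and 4 and opposite in sign at week 4.

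**Figure D4:**
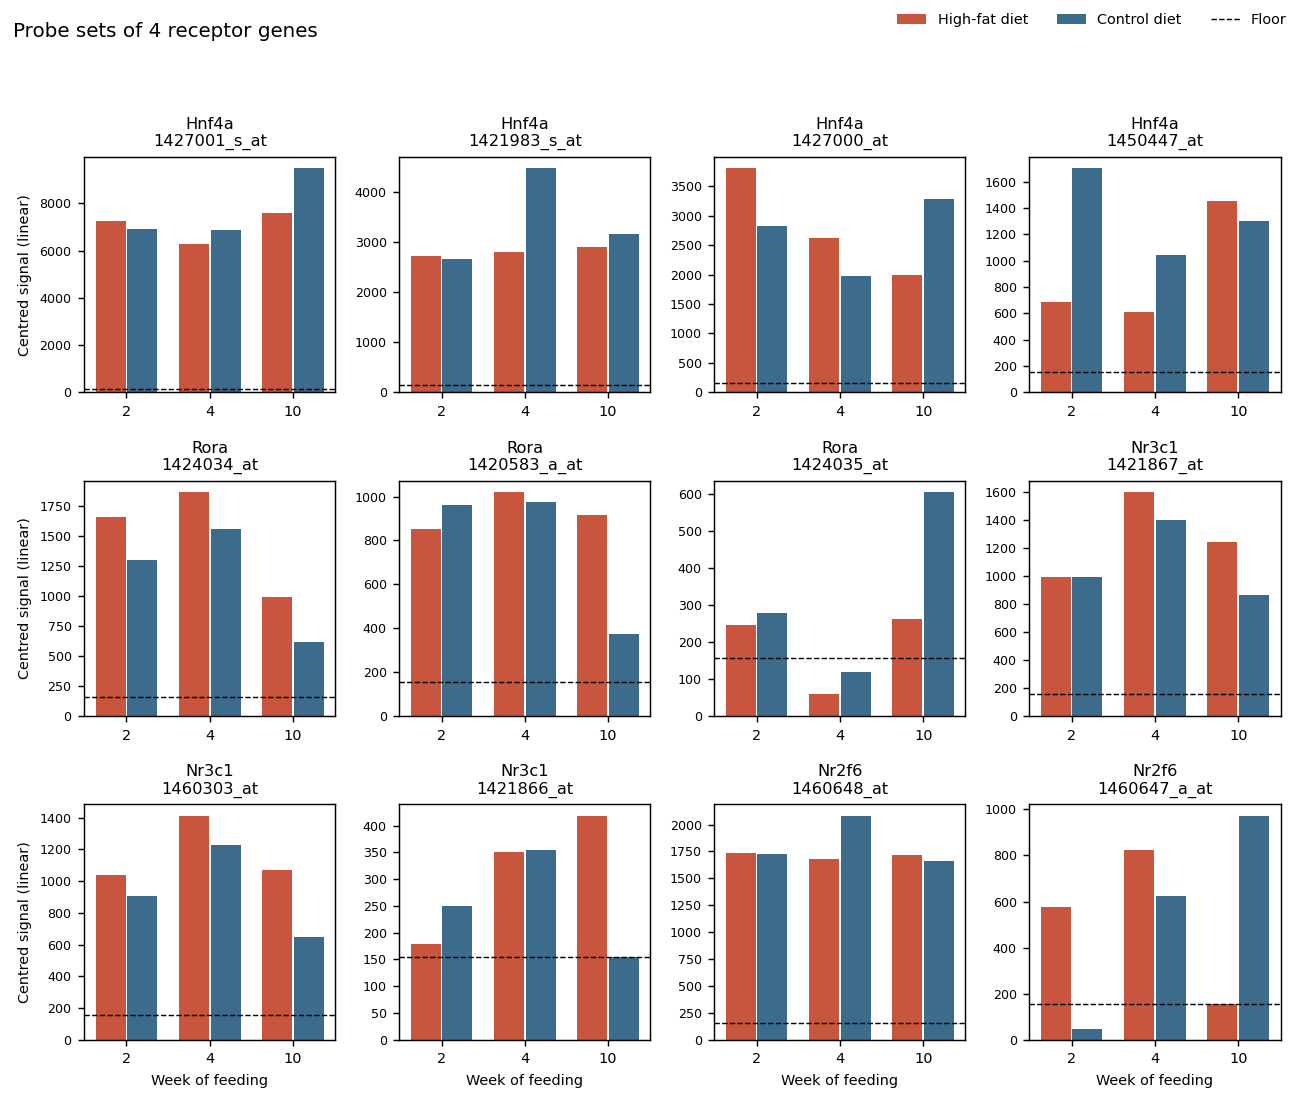
Centred linear signal of the probe sets that passed the filter for Hnf4a, Rora, Nr3c1 and Nr2f6. Each bar is 1 array, with high-fat left of control at each week, and the dashed line is the floor; at week 10 the high-fat bar is the higher on all 3 Nr3c1 probe sets, whereas the probe sets of Hnf4a, Rora and Nr2f6 differ in direction.

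Nr2f2, an orphan receptor of venous endothelium and stroma, had its difference at week 10. Its signal was 871, 450 and 368 on the high-fat arrays, against 696, 415 and 749 on the control arrays, so it was 2.03-fold lower with high-fat feeding at week 10. A second probe set of Nr2f2 gave 201 on the high-fat and 218 on the control array at week 10, a log2 difference of -0.11 against -1.02 on the brightest. Its remaining shared probe set, under the floor on all other arrays, was in the opposite direction, with 205 on the high-fat array and the control array under the floor (at least 0.40). At that week 13.5% of all genes were at least 1.5-fold higher on the high-fat array. Of 5 endothelial markers 2 were that much higher and 0 that much lower, with a summed signal of 4298 against 2169 on the control array. Kupffer cell markers were higher too, 5 of 6 by at least 1.5-fold, with 11683 against 5705, and stellate cell markers summed to 10275 against 7336. The part of these cell types in the receptor values was not tested.

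Nr6a1, the germ cell nuclear factor, was under the floor at week 4 on its shared probe sets. On the brightest it was at least 1.52-fold higher with high-fat feeding at week 10, with 236 against 107 on the control array. On 1421516_at it had 211 on the high-fat and 172 on the control array of week 10, a log2 difference of 0.29. On the larger design Nr6a1 was measured at week 4 by 1428826_at, with 174 on the high-fat and 290 on the control array, a log2 difference of -0.74. Nr2f6, a repressor of the same subfamily as Nr2f2, was even on its brightest probe set, with log2 differences of 0.01, -0.31 and 0.05. Its other probe set, 1460647_a_at, had 578, 826 and 153 on the high-fat arrays against 46.3, 624 and 973 on the control arrays. These are a difference of at least 1.90 at week 2 and one of at least 2.65 in the lower direction at week 10. Nr2c1 and Nr2c2, the testicular receptors, had differences from -0.16 to 0.49 on the brightest probe sets, with both Nr2c2 arrays of week 4 under the floor. On a second probe set Nr2c2 was at the floor on the high-fat array of week 10, a log2 difference of -0.86 that is at least that large in size.

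Agreement between probe sets limited what can be said of the family. Of the 24 tested members, 11 had 2 or more probe sets that passed the same filter. All probe sets of a gene had the same sign for 5 of the 11 at week 2, 3 at week 4 and 5 at week 10. Opposite signs were found for 6, 5 and 6 of them, and the 3 others at week 4 had a probe set with both arrays under the floor, which has no sign. For 0 of the 11, at any week, were all of them past 1.5-fold in the same direction. The same agreement was not counted over all genes, so whether receptors differ from other genes in this was not tested. The larger design added 32 member probe sets at week 4, of which 14 were above the floor on both arrays, 2 on a single array and 16 on neither.

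Time on diet was compared between weeks 10 and 2, which share an array design, again with 1 array each and on arrays that also enter the diet differences. On the high-fat diet 3 of 24 members were at least 1.5-fold higher at week 10, Nr0b2, Thrb and Nr2c1 (19.7% of all genes), and 4 were lower, Rxra, Thra, Rora and Nr2f2 (13.2%). On the control diet 3 were higher, Ppara, Rxrg and Thrb (11.8%), and 2 were lower, Thra and Rora (9.57%). Thrb was higher at week 10 than at week 2 on both diets, with log2 differences of 1.03 on the high-fat diet and 0.78 on the control diet. Thra was lower at week 10 on both, by -0.60 on the high-fat diet and -0.59 on the control diet. Nr0b2 had 1.03 on the high-fat diet and -0.58 on the control diet, and Ppara had -0.18 on the high-fat diet and 0.85 on the control diet. Nr2f2 had -1.24 on the high-fat diet and 0.11 on the control diet. The difference between the diets in these changes was not tested. On the high-fat diet the pyruvate carboxylase 3'/5' ratio was 9.64 at week 2 and 2.39 at week 10. It was 3.82 and 4.01 on the control diet, and its part in these changes was not tested.

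Genes that act with or downstream of the receptors were counted from 14 lists of target, coregulator and ligand-metabolism genes, chosen with earlier results of these data known. Of 95 genes listed 78 were tested, and 0 passed the limma test with diet, the smallest adjusted p being 0.646. At an unadjusted p under 0.05 there were 3 higher and 13 lower genes, 20.5% of those tested, where 4.08% of all genes had one; since the lists were chosen with results known, this is not independent support. Of 11 tested PPARA targets, those past 1.5-fold at week 2 were 0 higher (6.83% of all genes) and 1 lower (8.79%). At week 4 there were 3 higher (3.87%) and 0 lower (6.66%), and at week 10 there were 0 higher (13.5%) and 5 lower (12.7%). The median of the mean log2 differences of these targets was -0.25. Pdk4 had a mean of -0.96, and Fgf21 one of -0.63, which rests on arrays at the floor and joins a higher value at week 4, at least 0.86, with a lower one at week 10. LXR targets had a median of 0.33 over 9 genes, with Abcg5 at 0.56 and Srebf1 at 0.56. Of these 9, 3 were at least 1.5-fold higher at week 10 (13.5% of all genes) and 0 were that much lower at any week. The medians beside them were -0.39 for 6 CAR and PXR targets, -0.53 for 8 glucocorticoid targets, -0.51 for 4 HNF4A targets, -0.48 for 5 ROR targets and 0.28 for 5 thyroid hormone targets, with -0.03 over all genes. The 6 hepatocyte markers, of which Ttr is also an HNF4A target here, had a median of -0.49, and the part of this shift in the lower lists was not tested.

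In the other lists the medians were 0.28 for 4 PPARG targets, 0.27 for 3 FXR-induced genes, 0.40 for 2 retinoic acid targets, -0.96 for the 2 genes that the small heterodimer partner represses and -0.17 for 6 genes of ligand metabolism. Coactivators had a median of 0.10 over 10 genes and corepressors one of 0.07 over 5. Among the thyroid hormone targets, Thrsp, a lipogenic response gene, had log2 differences of -0.22, 0.42 and 2.21 and Gpd2, a mitochondrial glycerol phosphate dehydrogenase, had 0.52, 0.74 and 0.68, beside a Thra that was lower at each week. Nrip1, a corepressor of the receptors, had 0.07 and 0.53 at weeks 2 and 4, and at week 10 a difference of -1.55 that is a bound, the high-fat array being at the floor.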

How the data were processed

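Liver RNA of 3 high-fat and 3 control arrays (1 per diet at weeks 2, 4 and 10) was measured on 1-colour Affymetrix-type arrays, with biotin-labelled cRNA per the labels' protocols. Each probe set has 1 deposited signal intensity, on a linear scale. Which software summarised the probes is not stated by the labels or headers. The deposited arrays have a trimmed mean of 500, except the control array of week 2, at 799.9.

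Here 64 control probe sets were left out, log2 values were taken of the deposited intensity, and every array was shifted to a common median across 9922 probe sets above the floor on all arrays. The floor was the pooled 40th percentile (7.28 on the log2 scale). Of 22626 probe sets, 20380 had 1 symbol, 691 several and 1555 none, and symbols were updated through gene identifiers for 20351. The brightest probe set stood for a gene (12393 genes), and the 8846 genes that exceeded the floor on 3 or more arrays were tested with limma 3.58.1 in R 4.3.3, with diet and a week block, Benjamini-Hochberg adjusted over all genes at 0.05. The test was checked on simulated data, where it recovered most of the largest changes put in but few of the smallest. A gene that did not pass may therefore still differ. The number of arrays limits the precision.

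Members and lists were chosen with earlier results of these data known. Values on all 6 arrays were to be given for tested members with differences of 1 sign at all weeks or at least 1.5-fold in a week, and up to 2 genes of each list were to be named by size. Ppara, Nr3c1, Hnf4a, Rxra, Nr1h4, Nr2f6, Esr1, Cyp8b1, Arntl, Nr1d1, the probe sets singled out and the 3 printed stretches were chosen after their values were seen. Promoter sequences come from RefSeq (GRCm38.p6), which lists 30 of the members. Alternatives were the deposited scaling, quantile normalization, a loess correction for brightness, a floor at the 20th or at the 60th percentile, testing without the filter, averaging a gene's probe sets, each probe set by itself, no week block, eBayes with trend and robust, and leaving out each week. Figures were drawn with matplotlib 3.10.9.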

Additional observations from a re-analysis of the deposited data

Results flagged for a closer look

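Nr0b2 passed 1.5-fold one way at week 4 and the other way at week 10: its log2 difference, high-fat minus control, was -0.67 at week 4 and 1.08 at week 10. Each value is 1 array against 1 array, and the difference between the weeks was not tested.

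Outside the main comparison, 3 receptor probe sets of the larger array design had a signal at least 1.5-fold above the control array at week 4. Esr1 had a log2 difference of 1.12 on 1435663_at, with 361 on the high-fat and 166 on the control array, while its brighter probe set 1460591_at had -0.20. Ppara had 0.79 on 1439675_at and 0.72 on 1457721_at. In the other direction Nr6a1 had -0.74 on 1428826_at, with 174 on the high-fat and 290 on the control array. None of these has a replicate or a value at weeks 2 and 10.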

How the results depend on the processing

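No receptor passed the test over the 3 weeks in the main setting or in any of the 13 alternatives. The number of all genes called was 1, against 7 with the values as deposited, 0 with quantile normalization, the floor at the 60th percentile, no filter, averaged probe sets or no week block, 2 with each probe set by itself, and 6, 7 and 7 without the arrays of week 2, 4 and 10. Counts of members at least 1.5-fold different changed as follows. The shares of all genes were not counted in these settings, so the counts cannot be set against them. In the values as deposited the control array of week 2 is scaled higher, and the median of all genes at week 2 is -0.67. With these values 15 of 23 tested members were lower at week 2. At all 3 weeks, by any amount, 0 were higher and 6 lower. Quantile normalization gave 0 lower at week 4. Loess on brightness gave 1 higher and 1 lower at week 2 and 2 lower at week 4. The floor at the 20th percentile, with 29 members tested, gave 2 higher at week 2, 1 higher at week 4 and 5 lower at week 10. That at the 60th, with 19, gave 1, 2 and 1 lower at weeks 2, 4 and 10. No filter gave 1 higher at week 4, and averaged probe sets 1 higher and 1 lower at week 2. Of 40 member probe sets taken by themselves, 1 was higher and 4 lower at week 2, and 6 higher and 7 lower at week 10. Of the mean differences of the 10 members described in full, Nr0b2 turned to 0.21 without week 2 and 0.28 without week 4, Nr1i3 to 0.29 without week 4, Nr2f2 to 0.068 with averaged probe sets and 0.22 without week 10, and Nr6a1 to -0.081 without week 10. The other 111 values kept their sign, but not all their size. Among them, those without the filter, without the week block or with trend and robust eBayes could not turn. These settings leave the mean difference of a described member as it is. In the averaged probe sets of Thra, the sign at weeks 2 and 10 came from 1454675_at alone. Over the alternatives Thra ranged from -0.90 to -0.32, with a smallest adjusted p of 0.381 by limma, Thrb from -0.59 to -0.16, Rora from 0.12 to 0.52, Rxrb from 0.089 to 0.38, Rxrg from -0.68 to -0.087 and Nr1h3 from -0.45 to -0.18. The lower end of size came from averaged probe sets for Thra and Rora, the floor at the 60th percentile for Thrb, the values as deposited for Rxrb, and leaving out week 10 for Rxrg and week 4 for Nr1h3. Where a week was left out, fewer arrays enter, and elsewhere the cause was not tested. Signal close to the floor limits Rxrg, Nr6a1, Thrb and the dimmer probe sets.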
